A study of Arabidopsis thaliana with 4 samples.

Results

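Jacalin-related lectins are plant proteins that bind carbohydrates through the jacalin fold, and Arabidopsis thaliana encodes a large family of them. The genes described here are 5 such lectin genes that lie in 2 groups of neighbouring genes. JAL22 (AT2G39310) and JAL23 (AT2G39330) are on chromosome 2, and JAL31 (AT3G16430), JAL33 (AT3G16450) and JAL34 (AT3G16460) are on chromosome 3. They were taken by locus from the probes that the platform annotation assigns to 1 gene. That gave 6 probes, 2 of them for JAL34, out of 9335 single-gene probes and 22575 probes in all. The genes were chosen by their low ratios of nai1-1 over Col-0 on these same arrays, so their genotype values are given as a description, without p-values.

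In roots of Brassicaceae, ER bodies are long compartments of the endoplasmic reticulum that store beta-glucosidases, chiefly PYK10. NAI1, a transcription factor of the basic helix-loop-helix class, is needed to form them, and NAI2 is an ER body protein needed for the same step. When root cells are broken, PYK10 leaves the ER body and is found in large complexes together with jacalin-related lectins that were held elsewhere in the cell.

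Root RNA of the ER body-deficient mutant nai1-1 was hybridised with root RNA of the wild type Col-0 on 4 two-colour arrays, each carrying both genotypes. The mutant carried Cy3 on arrays 1 and 4, and Cy5 was its dye on arrays 2 and 3. Plants of both genotypes shared plates of MS medium with 1% sucrose and 0.5% gellan gum, grew at 22 °C in continuous light without treatment, and were 20 days old when RNA of 3 plants per genotype was pooled. The labels do not say whether each array had its own pool, so SDs and p-values measure the spread between arrays, which may be technical. The labels name no lesion for nai1-1. Levels cannot be read from ratios, so root markers were not checked, and fewer cells that express a gene cannot be told apart from less RNA per cell.

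Values are given as the log2 of nai1-1 over Col-0, so -1 is a halved transcript level. The direction is the likely one. It rests on the extraction software's convention of Cy5 over Cy3 and on the dyes in the labels, and would turn for every gene under the opposite convention. Spread over the single-gene probes differed between arrays, with median absolute deviations of 0.260, 0.223, 0.155 and 0.125 on arrays 1 to 4. Pearson correlations between arrays across these probes ran from 0.332 to 0.753. As the check of the mutated gene, NAI1 was at -0.77, -1.21, -0.21 and -0.60 on arrays 1 to 4, with a mean of -0.70 ± 0.41 (SD, n = 4), which did not pass (limma adjusted p = 0.259). NAI1 passed in a fit on single-gene probes only (limma adjusted p = 0.0428), and its adjusted p ran from 0.0428 to 0.721 over all alternatives. As markers of shoot tissue, 5 of 32 listed photosynthesis genes were measured; their median was -0.10 and they ranged from -0.18 to 0.28. With limma over all probes 0 of them passed and 0 had an unadjusted p under 0.05, where 112 and 2913 of 22575 probes did.

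Transcripts of all 5 lectin genes were less abundant in nai1-1 than in Col-0 on every array. By these ratios, the remaining level ranged from 3.14% of Col-0 for JAL22 to 33.5% for JAL34. Intensities were not used, so whether the mutant signal of the lowest probes lay near background was not tested. The percentages, folds and steps between genes are therefore those of the deposited ratios. The 5 genes kept a single order on all 4 arrays, with JAL22 lowest, then JAL33, JAL31, JAL23 and JAL34. In the limma fit over all probes, 5 of the 6 lectin probes were called lower, where 0.483% of all 22575 probes were. This contrast also chose the genes, so nothing is read from that count. The count was 6 of 6 with no dye term, where 394 of all 22575 probes passed in either direction. It was also 6 of 6 without the probes that hold a ratio of exactly 0 on any array, where 778 of 21559 passed. With single-gene probes only it was again 6 of 6, and 570 of 9335 passed. The count was 0 of 6 with any single array left out, with arrays scaled alike or with arrays averaged as 2 replicates. In each of those settings 0 of 22575 probes passed, so the 0 is not particular to the lectins. The count was 5 of 6 when averaging was combined with leaving out exact 0 values, where 121 of 21559 passed. Nothing is read from these counts either.

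JAL22, the first lectin gene of the chromosome 2 group, had log2 ratios of -4.82, -5.25, -4.42 and -5.48 on arrays 1 to 4. Its mean was -4.99 ± 0.47 (SD, n = 4; SE of the fit 0.20), which is 31.8-fold lower. Each array thus left between 2.24% and 4.68% of the Col-0 level, and JAL22 was the lowest of the 9335 single-gene probes on each of the 4 arrays.

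JAL23 lies beyond 1 other gene from JAL22 and was less reduced. Its ratios were -2.61, -3.55, -3.08 and -2.44 on arrays 1 to 4. The mean of -2.92 ± 0.50 (SD, n = 4; SE of the fit 0.11) is 7.57-fold lower and leaves 13.2% of the Col-0 level. Arrays 2 and 3, which had the mutant in Cy5, gave the lower values, and the 2 dye orientations did not overlap. JAL23 was the 8th lowest single-gene probe by its mean, and its place on single arrays ran from 4th to 24th.

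JAL31 opens the chromosome 3 group in this set. Its neighbour PBP1, the PYK10-binding lectin also listed as JAL30, has no single-gene probe and was not analysed here. JAL31 had ratios of -3.45, -4.35, -3.45 and -3.42 on arrays 1 to 4. The values of arrays 1, 3 and 4 lay within a few hundredths of one another, while array 2 was lower. The mean was -3.67 ± 0.45 (SD, n = 4; SE of the fit 0.17), which is 12.7-fold lower, and without array 2 the fitted value was -3.45. Probe sequences were not used here. Whether the JAL31 probe, or any other lectin probe, also takes up transcripts of related lectins was therefore not tested.

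JAL33 had ratios of -4.32, -4.88, -4.02 and -4.92 on arrays 1 to 4. Its mean was -4.53 ± 0.44 (SD, n = 4; SE of the fit 0.19), which is 23.2-fold lower, and between 3.31% and 6.17% of the Col-0 level was left. It was the second lowest of the single-gene probes on all 4 arrays, behind JAL22. Among all 22575 probes it was 3rd by its mean, since 1 probe without a single named gene lay between it and JAL22.

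JAL34, the lectin gene next to JAL33, was the least reduced of the group and had 2 probes. Probe 9587 gave -0.98, -1.69, -2.04 and -1.82 on arrays 1 to 4, with a mean of -1.64 ± 0.46 (SD, n = 4). Probe 21685 gave -1.37, -1.25, -1.64 and -1.83, with a mean of -1.52 ± 0.26 (SD, n = 4). Their difference was -0.11 ± 0.39 (SD, n = 4) and changed sign between arrays, so the 2 probes did not differ beyond the spread between arrays. The mean of both probes was -1.58 ± 0.32 (SD, n = 4), or 2.99-fold lower. The gene models of JAL34 and the next lectin gene, JR1 (also listed as JAL35), overlap in the RefSeq table. The probes' positions were not used here, so a share of JR1 transcript in the JAL34 signal was not tested.

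**Figure D1:**
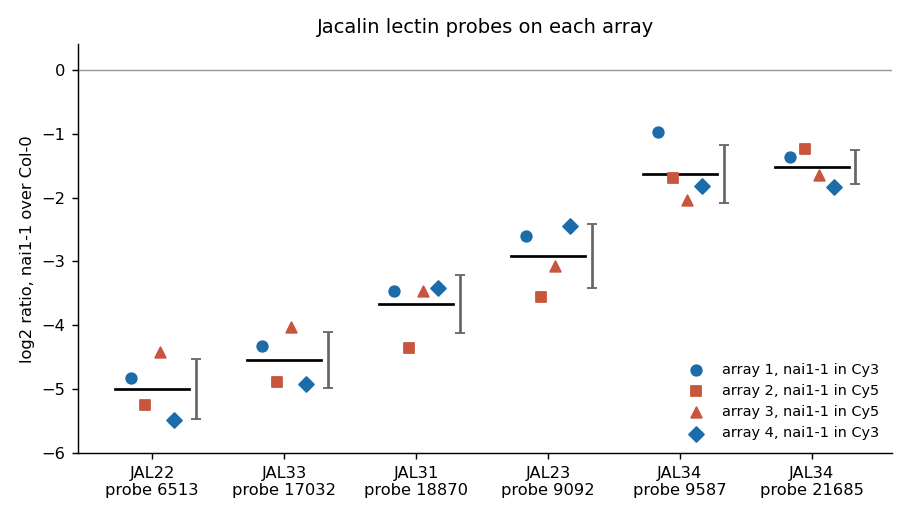
Log2 ratio of nai1-1 over Col-0 (vertical axis) for each of the 6 lectin probes (horizontal axis, ordered by mean). Symbols are single arrays coloured by the dye of nai1-1, black lines are means of 4 arrays and grey bars are SDs; the means run from -4.99 for JAL22 to -1.52 for JAL34 probe 21685, and every symbol lies below 0.

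The ranges of JAL22 and JAL33 overlapped, as did those of JAL33 and JAL31 and those of JAL31 and JAL23. Taken array by array, the steps were nevertheless one-sided. JAL22 minus JAL33 was -0.50, -0.37, -0.40 and -0.57 on arrays 1 to 4. JAL31 was above JAL33 by 0.86 ± 0.45 (SD, n = 4) and JAL23 was above JAL31 by 0.75 ± 0.26 (SD, n = 4). JAL34 stood apart from the rest, with its highest and lowest array means of -1.18 and -1.84 both above every value of the other 4 genes. The gap between JAL23 and JAL34 was -1.34 ± 0.60 (SD, n = 4).

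Position within a group did not sort the genes by size. The chromosome 2 group held the most reduced gene and the one next to last, and JAL22 minus JAL23 was -2.07 ± 0.74 (SD, n = 4). On chromosome 3, JAL33 and JAL34 are next to each other and differed by -2.96 ± 0.54 (SD, n = 4), with JAL33 lower on 4 of 4 arrays. The mean of the chromosome 2 genes minus that of the chromosome 3 genes, JAL34 included, was -0.69 ± 0.11 (SD, n = 4) and ran from -0.83 to -0.57. This difference rests on JAL34, the least reduced gene. JAL22 minus JAL33 was -0.46 ± 0.09 and JAL23 minus JAL31 was 0.75 ± 0.26 (SD, n = 4). Without JAL34 the chromosome 2 genes were thus not the lower ones on average.

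The 5 genes also differed in how they varied over the arrays. JAL22 and JAL33, which lie on different chromosomes, deviated from their own means by 0.17 and 0.22 on array 1, -0.26 and -0.35 on array 2, 0.57 and 0.52 on array 3, and -0.49 and -0.38 on array 4. Their difference had an SD of 0.09, against 0.26 to 0.74 for the other 9 pairs of the 5 genes. JAL23 and JAL31 were also below their means on array 2, at -0.63 and -0.68, which was their lowest array. On array 4, where JAL22 and JAL33 were lowest, they lay 0.48 and 0.25 above their means. JAL34 followed neither pattern and was least reduced on array 1. The values of a pair share arrays and labelling reactions, so these deviations describe 4 hybridisations and are no measure of shared regulation.

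**Figure D2:**
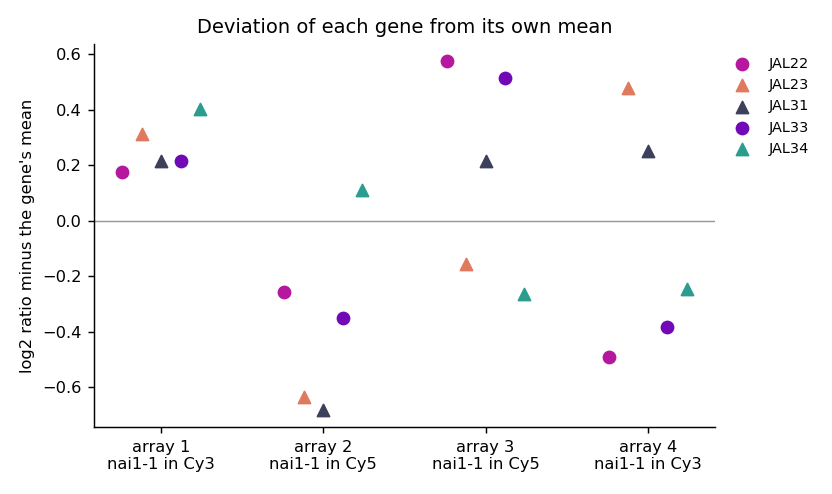
Log2 ratio of each lectin gene minus its own mean over 4 arrays (vertical axis), by array with the dye of nai1-1 (horizontal axis); circles are JAL22 and JAL33, triangles the other 3 genes, and JAL34 is the mean of its 2 probes. JAL22 and JAL33 lie close together on each array, and on array 4 they are below 0 while JAL23 and JAL31 are above it.

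The dye effect is a measure that the choice of genes did not use. It is the part of a ratio that follows the dye instead of the genotype, as log2 of Cy5 over Cy3. JAL23 had the largest of the 6, at -0.40 ± 0.11 (SE, n = 4), with genotype ratios averaging -2.52 where the mutant was in Cy3 and -3.32 where it was in Cy5. It had an unadjusted limma p of 0.0235 and an adjusted p of 0.803. The other 5 dye effects lay between -0.23 and 0.16, with adjusted p-values from 0.803 to 0.934. With limma 0 of 22575 probes (0%) passed for dye, and 1217 had an unadjusted p under 0.05. Without the probes that hold a ratio of exactly 0, 258 of 21559 probes passed for dye, and the lectin probes did not (limma adjusted p from 0.687 to 0.957). Averaged over the 5 genes, the ratio was -3.45 with the mutant in Cy3 and -3.63 with it in Cy5. These are the genotype ratios that chose the genes, so low values in both orientations are a description only.

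**Figure D3:**
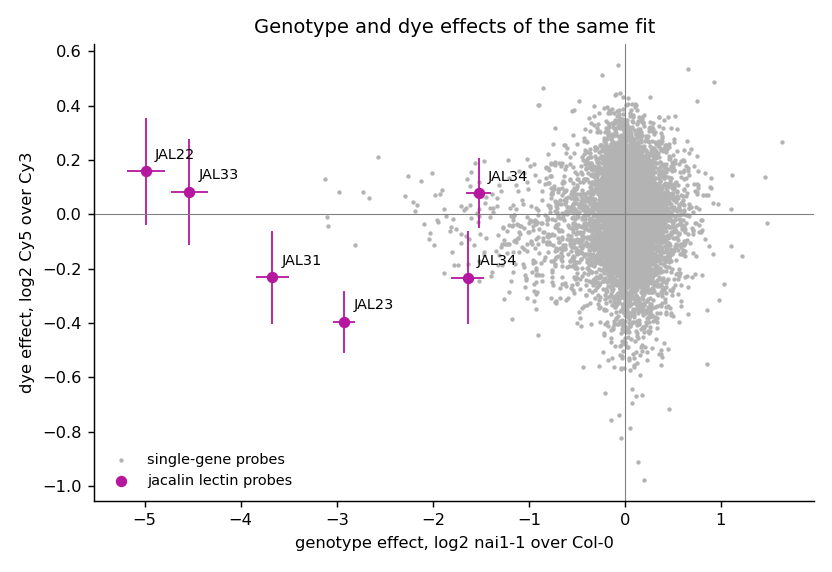
Genotype effect (horizontal axis, log2 of nai1-1 over Col-0) against dye effect (vertical axis, log2 of Cy5 over Cy3) from one fit, with grey points for single-gene probes and coloured points with SE bars for the 6 lectin probes. The lectin dye effects run from -0.40 to 0.16, while their genotype effects run from -4.99 to -1.52.

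Lectin probes were among the lowest on the arrays. Of the 9335 single-gene probes, 6 were at least 8-fold lower on average and 3 of these were lectin probes (JAL22, JAL33 and JAL31). Of the 22 probes at least 4-fold lower, 4 were lectin probes, and of the 155 at least 2-fold lower, 6 were. These counts rest on the values that chose the genes. The single-gene probes whose 4 array values lay nearest to the mean profile of the 5 genes were those of BHLH92, AT1G33760, NAI2, AT5G52020 and AT1G66800. Their root mean square differences from that profile over 4 arrays were 0.46, 0.67, 0.74, 0.88 and 0.92. For comparison, JAL31 was 0.27 from the profile and JAL34 1.99.

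The other genes tied to ER bodies give the setting for these ratios. Of 13 listed, 7 were measured: 3 fell, 0 rose and 4 did not pass with limma over all probes, where 0.483% of all probes were called lower. Their median was -0.70, against 0.00 over all probes, and the list was chosen with results of these arrays known. NAI2, the ER body protein, fell with ratios of -2.53, -3.09, -2.75 and -2.86 on arrays 1 to 4 (limma adjusted p = 0.0181). PYK10, the main root ER body beta-glucosidase, fell with ratios of -2.00, -2.03, -1.68 and -2.32 (limma adjusted p = 0.032). AT1G54010, a GDSL lipase gene, fell by 1.62 ± 0.11 (SE, n = 4; limma adjusted p = 0.0346). With any single array left out, with arrays scaled alike or with arrays averaged as 2 replicates, 0 of these 7 genes passed. In each of those settings 0 of all 22575 probes passed.

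JAL22, JAL33 and JAL31 were below NAI2 and PYK10 on all 4 arrays. JAL22 minus PYK10 was -2.98 ± 0.24 (SD, n = 4) and ran from -3.22 to -2.74. JAL23 and NAI2 differed by -0.11 ± 0.39 (SD, n = 4), within the spread between arrays. JAL34 was less reduced than NAI2 on 4 of 4 arrays, at 1.23 ± 0.32 (SD, n = 4) above it, and was above PYK10 on 3 of 4. The 2 beta-glucosidases related to PYK10, BGLU21 at -0.37 ± 0.24 and BGLU22 at -0.69 ± 0.16 (SE, n = 4), did not pass (limma adjusted p = 0.59 and 0.21). BGLU22 passed with single-gene probes only (limma adjusted p = 0.0303), with a range of 0.0303 to 0.647 over all alternatives. AT1G54020 was at 0.06 (limma adjusted p = 0.869).

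The rest of the jacalin-domain family was measured as a list by locus. It held 43 other genes, of which 18 had a single-gene probe. With limma over all probes 0 of the 18 passed in either direction, against 0.496% of all probes. At an unadjusted limma p under 0.05, 3 were lower and 2 higher, where 1651 and 1262 of all 22575 probes were. The 18 genes had a median of -0.12 and a range of -1.46 to 0.39. Of them, 5 were below Col-0 on 4 of 4 arrays, where 12.2% of single-gene probes were. A gene that did not pass is not shown to be unchanged.

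The largest difference among them was that of AT5G35940 on chromosome 5, at -0.38, -1.28, -1.95 and -2.24 on arrays 1 to 4. Its mean of -1.46 ± 0.83 (SD, n = 4; limma adjusted p = 0.215) was close to that of JAL34, and the array values of both genes overlapped. It passed when the 1016 probes with a ratio of exactly 0 on any array were left out (limma adjusted p = 0.0442), and its adjusted p ran from 0.0147 to 0.613 over all alternatives. AT1G52100, in the chromosome 1 group of lectin genes, was at -1.22, -1.13, -0.76 and -0.80 on arrays 1 to 4. Its mean was -0.98 ± 0.23 (SD, n = 4; limma adjusted p = 0.0787), and it passed without the probes that hold an exact 0 (limma adjusted p = 0.0108), with a range of 0.00301 to 0.451 over all alternatives. AT1G52070, in the same chromosome 1 group, was above Col-0 on 4 of 4 arrays, at 0.39 ± 0.13 (SD, n = 4; limma adjusted p = 0.193). AT3G21380 was at -0.50 ± 0.47 (SD, n = 4; limma adjusted p = 0.124) and held an exact 0 on 1 array. It passed with single-gene probes only (limma adjusted p = 0.0339), with a range of 0.0339 to 0.515 over the alternatives that kept its probe. Only AT5G35940 and AT1G52100 of the 18 had an array value below the highest array mean of the 5 lectin genes, which was -1.18 for JAL34.

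**Figure D4:**
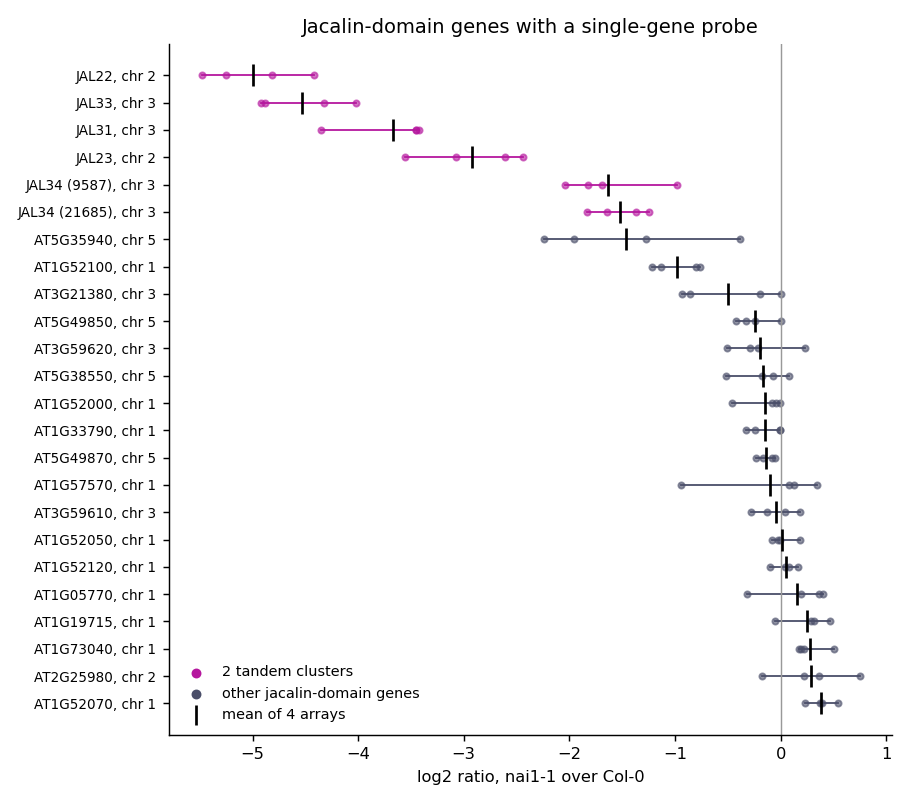
Log2 ratio of nai1-1 over Col-0 (horizontal axis) for every jacalin-domain gene with a single-gene probe (vertical axis, with its chromosome), as points for 4 arrays, a line for their range and a bar for the mean. The probes of the 2 tandem clusters lie between -5.48 and -0.98, and the 18 other genes have means between -1.46 and 0.39.

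Genes near the 2 lectin groups were examined to see how far along the chromosome low ratios extended. The 10 annotated genes on each side, and those between the lectin genes, came to 43 genes, of which 10 had a single-gene probe (11 probes). With limma over all probes 0 of the 11 passed, against 0.496% of all probes. At an unadjusted limma p under 0.05, 1 was lower and 1 higher, where 1651 and 1262 of all 22575 probes were. The 11 probes had a median of -0.03, with a range of -0.62 to 0.37.

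Near the chromosome 2 group, the nearest measured genes before it were AT2G39270 at -0.15 ± 0.20 and AT2G39260 at 0.02 ± 0.17 (SD, n = 4; limma adjusted p = 0.587 and 0.934). After it came AT2G39360 at -0.22 ± 0.33 and AT2G39390 at 0.37 ± 0.17 (SD, n = 4; limma adjusted p = 0.567 and 0.269). Before the chromosome 3 group, AT3G16370 had 2 probes, at 0.19 and -0.03 (limma adjusted p = 0.607 and 0.924). After it, IQD26 was at 0.08 ± 0.29 (SD, n = 4; limma adjusted p = 0.839) and AT3G16510 at -0.62 ± 0.50 (SD, n = 4; limma adjusted p = 0.36).

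The genes closest to the 5 lectin genes described here had no single-gene probe. They include AT2G39320 between JAL22 and JAL23, MLP-300B between JAL31 and JAL33, PBP1 and the nitrile specifier genes NSP1, NSP3 and NSP4 before JAL31, and JR1 after JAL34. Of these, at least PBP1 and JR1 are lectin genes themselves, so the described genes are not the whole chromosome 3 group. The nearest gene with a value lay 5 genes before and 6 genes after the chromosome 2 group, and 9 genes before and 3 genes after the chromosome 3 group. Within that distance the extent of the low ratios was not measured. Beyond it, a gene that did not pass is not shown to be unchanged, so no edge is read from these values.

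**Figure D5:**
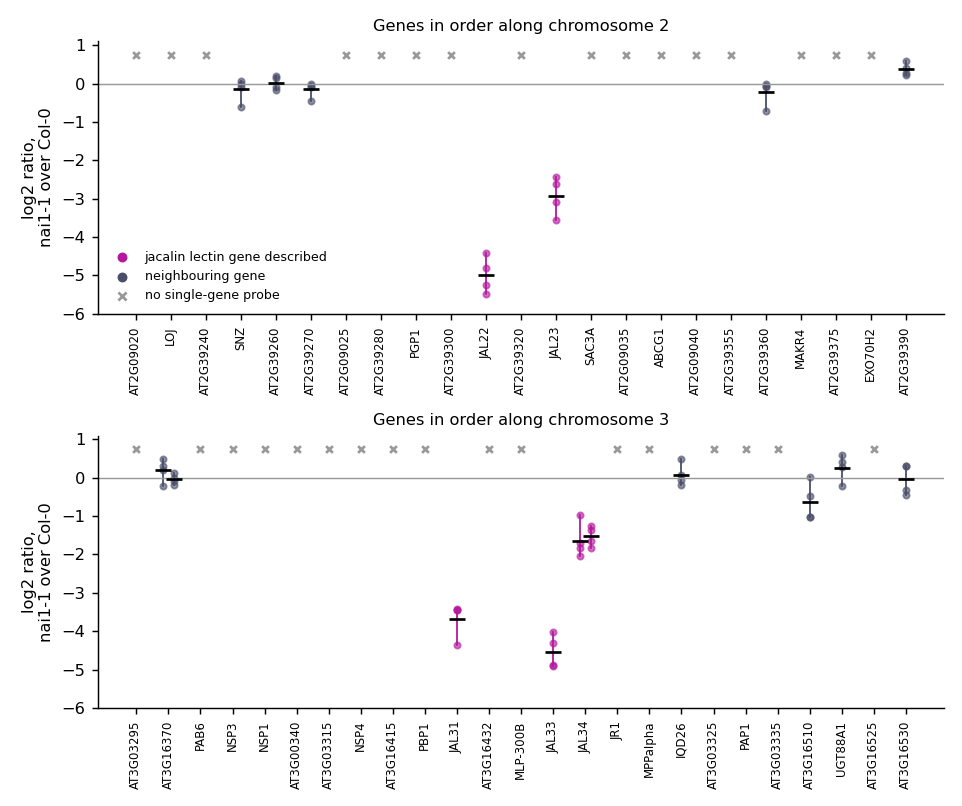
Log2 ratio of nai1-1 over Col-0 (vertical axis) for genes in their order along chromosome 2 (upper panel) and chromosome 3 (lower panel), with points for 4 arrays, a vertical line for their range and a bar for the mean; a cross marks a gene with no single-gene probe. The lectin values lie between -5.48 and -0.98, and the neighbouring genes have means between -0.62 and 0.37.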

How the data were processed

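The authors deposited a log10 ratio for each probe on each array. Per the submitters' processing notes, Agilent Feature Extraction 7.1 was used. Its background, dye and flag settings are not stated in the labels, and intensities were not used, so dim or saturated spots were not removed. The ratios were converted to log2, and arrays 1 and 4 were turned so that each value is nai1-1 over Col-0. Probe names come from the platform annotation. Their symbols were brought up to date by Entrez identifier in the RefSeq table of assembly TAIR10.1, which matched 9317 of 9335 single-gene probes. A further 40 probes had several genes and 13200 were not listed. Gene neighbours come from the order in that table.

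A linear model was fitted to all 22575 probes (limma 3.58.1, lmFit and eBayes, R 4.3.3) with genotype and dye terms, two-sided, with Benjamini-Hochberg adjustment at 0.05. The fit was tested on simulated data. The number of arrays limits the precision. The genes and lists were chosen with earlier results of these data known. Named genes were the 5 lectin genes, the measured ER body genes, other jacalin-domain genes past the threshold plus the 4 with the smallest p, the 2 nearest measured neighbours on each side, and the 5 probes nearest in profile. Planned comparisons of protein and promoter sequences were not made. Alternatives changed the dye term, exact 0 values, centring, scale, weights, the probes fitted and the arrays used.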

Additional observations from a re-analysis of the deposited data

Results flagged for a closer look

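Dixon's test asked of each named probe whether 1 array stood away from the rest, and it did for 4 of 29 probes. Chance gives about 1 in 20 where arrays have equal spread and probes are independent. Spread was wider on arrays 1 and 2, where the 4 flagged values lay, and all probes share the same arrays. The count is therefore not compared with chance. JAL31 had -4.352 on array 2, against -3.45 to -3.42 on the other arrays. AT2G39360, a neighbour of the chromosome 2 group, had -0.711 on array 2, against -0.08 to -0.02. BGLU21 had 0.565 on array 1, against -0.76 to -0.64. AT1G54010 had -1.319 on array 1, against -1.75 to -1.71.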

How the results depend on the processing

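Under 12 alternatives, each of the 6 lectin ratios kept its direction and moved by less than its SD between arrays. Direction could not turn by leaving out or averaging arrays, since every array value was below 0. Each ratio is the mean of 4 arrays in a design balanced for dye. Changes to the dye term, exact 0 values, probes fitted or averaging therefore could not move it and are no check of it. Weights left each ratio as it was, and centring hardly moved it. The alternatives that moved the ratios were scaling and leaving out an array. With 1 array left out JAL22 ranged from -5.20 to -4.78 and JAL34 probe 9587 from -1.84 to -1.43. The 6 dye effects did not pass under any alternative that tested them. The number of probes called for genotype was 112 and became 394 with no dye term, 778 without probes that hold an exact 0, 570 with single-gene probes only, and 0 with arrays scaled alike or averaged as 2 replicates. It was 0 with any single array left out. Averaging and leaving out exact 0 values together, an alternative chosen after seeing the data, gave 121. Other jacalin-domain genes called went from 0 to 1 with no dye term, 2 without exact 0 values and 3 with single-gene probes only. Other ER body genes called went from 3 to 5 with single-gene probes only, which added NAI1 and BGLU22, to 0 with arrays scaled alike or averaged, and to 0 with any array left out. Neighbouring genes called stayed at 0. Leaving out an array also leaves 1 residual degree of freedom; otherwise the cause was not tested. Each ratio already compares both genotypes within 1 array, so no further block by replicate number was fitted.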
